A study of Homo sapiens with 12 samples.

Results

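RBE is an established human cell line grown from an intrahepatic cholangiocarcinoma, a cancer of the bile ducts inside the liver. Its baseline expression was described from the 2 libraries of RBE cells treated with a scrambled control siRNA, set against the 2 libraries each of HuH-28 and SSP-25, which are other intrahepatic cholangiocarcinoma lines treated in the same way. These are 6 of the 12 libraries of the series, and the 6 libraries of cells given siRNA against LKB1 were not used here. All cells were harvested for RNA 48 h after transfection. RBE and SSP-25 cells were grown in RPMI1640 and HuH-28 cells in MEM, both with fetal bovine serum, so that the medium and the line cannot be told apart in any comparison with HuH-28. Each line is 1 tumour's cells. In a heat map legend the study calls the numbers 1 and 2 the 1st and the 2nd test. The sources used here do not say whether the libraries of a line came from separate cultures. The p-values therefore measure the spread between these libraries, which may be technical, and the differences are between 3 cell lines and not between groups of tumours.

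Values are normalized reads per kilobase of transcript, called signal here, and can be compared between genes. The summed signal was 10162274 and 9909644 in the RBE libraries, 10547973 and 11347800 in the HuH-28 libraries, and 11512194 and 11403787 in the SSP-25 libraries. The table holds fractional values and no read counts, so that the depth behind a value is unknown. None of 76 cytosolic ribosomal protein genes was below a signal of 1 in any of the 6 libraries. Over the 12138 genes whose mean signal was 20 or more, Spearman's rho was 0.996 to 0.999 between libraries of the same line, as a description across genes.

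Cholangiocytes, the epithelial cells of the bile ducts, arise in the embryo from hepatoblasts, the same precursors that give hepatocytes. Their identity is kept by transcription factors such as SOX9 and the FOXA proteins, and the simple-epithelium keratins KRT7 and KRT19 are used by pathologists to recognize them. Hepatocytes share many of these factors and add HNF4A and a set of secreted plasma proteins, while loss of cell junctions with gain of matrix genes marks a mesenchymal state.

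RBE cells stood apart from HuH-28 and SSP-25 cells together in a large share of the genes measured. Of 15602 genes tested, 1762 were higher in RBE than in both other lines, which is 11.3% of the genes tested, and 1635 were lower than in both, which is 10.5%. A gene was called when both pairwise differences passed an adjusted p of 0.05 in limma with a log2 difference above 1 on the log2(signal + 0.5) scale. Against the mean of the other lines, 2836 genes were higher in RBE (18.2%) and 3186 were lower (20.4%). Against HuH-28 alone, 3132 genes were higher (20.1%) and 3521 lower (22.6%), and against SSP-25 alone 3013 were higher (19.3%) and 2960 lower (19%). By the same rule HuH-28 had 1988 genes above and 1481 below both other lines, and SSP-25 had 1208 above and 1211 below. Many of the RBE calls rested on low signals, since 537 of the 1762 higher genes had a mean below 20 in RBE. When genes with a mean signal under 20 over the 6 libraries were left out, 983 genes were higher and 1245 lower than in both lines.

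**Figure D1:**
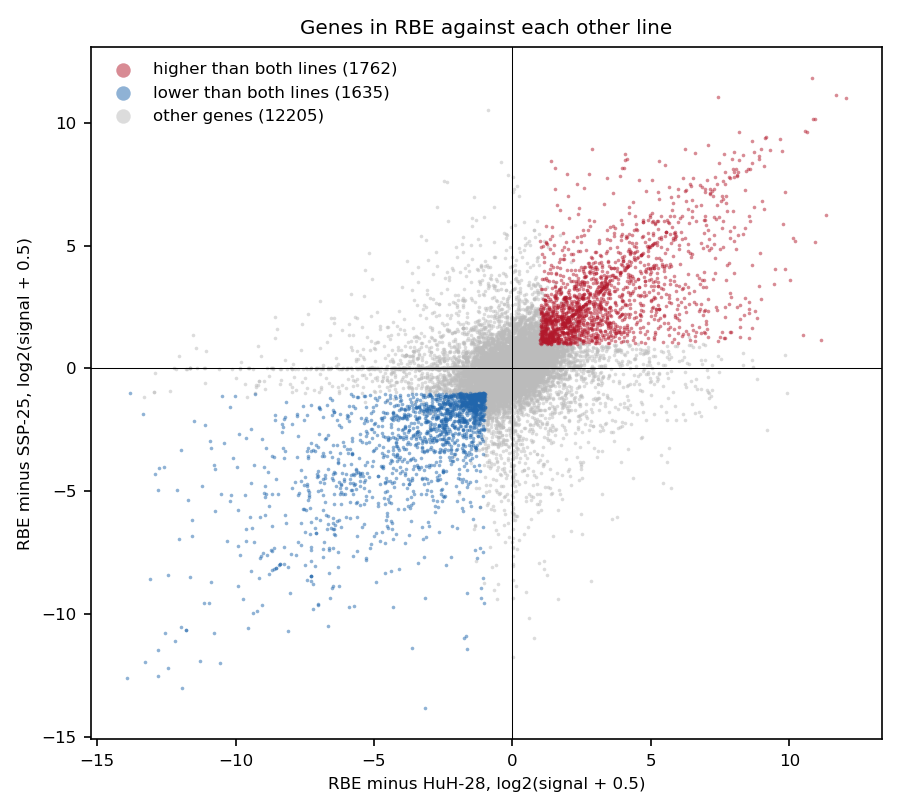
Log2 difference of RBE from HuH-28 (x axis) and from SSP-25 (y axis) for each of the 15602 genes tested, on the log2(signal + 0.5) scale. Red points are the 1762 genes higher in RBE than in both lines and blue points the 1635 lower than in both; both axes share the same 2 RBE libraries.

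The cholangiocyte markers were measured first, as a check of the label. The keratin gene KRT7 had a signal of 14978 and 14456 in RBE, against 2467 and 2406 in HuH-28 and 6048 and 5759 in SSP-25. KRT19 had 11826 and 11080 in RBE, against 9.86 and 11 in HuH-28 and 964 and 916 in SSP-25. SOX9, a factor of bile duct and progenitor cells, had 621 and 607 in RBE, 208 and 188 in HuH-28, and 253 and 253 in SSP-25. The RBE libraries lay above all 4 others for each of these genes. The adhesion molecule EPCAM had 447 and 403 in RBE, 0.597 and 1.31 in HuH-28, and 96.5 and 111 in SSP-25. All of these 4 markers were thus present in RBE, and each was higher there than in both other lines. The log2 difference from SSP-25 was 1.32 ± 0.06 (SE) for KRT7, 3.61 ± 0.07 for KRT19, 1.28 ± 0.07 for SOX9 and 2.03 ± 0.24 for EPCAM, with adjusted p of 4.5e-06, 1.8e-07, 6.6e-06 and 0.0003.

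Over the list of biliary markers, 15 of 24 members tested were higher in RBE than in both lines, a share of 62.5% beside 11.3% of all genes tested, and 0 were lower. At an unadjusted p under 0.05 in both limma comparisons and with no minimum size, 16 were higher and 1 was lower. Of all 15602 genes, 3763 were higher and 3728 lower in this way. The median log2 difference of the list from the mean of the other lines was 2.82, beside -0.02 for all genes. JAG1, the Notch ligand whose loss in humans reduces the number of bile ducts, had 1270 and 1293 in RBE, 157 and 152 in HuH-28, and 191 and 173 in SSP-25. GGT1, an enzyme of the apical duct membrane, had 340 and 362 in RBE, 24.0 and 23.3 in HuH-28, and 114 and 126 in SSP-25. PKHD1, the fibrocystin gene of polycystic liver and kidney disease, had 82.3 and 68.1 in RBE and did not exceed 0.123 in any library of the other lines. CD24 was not apart from SSP-25 by the call, with 703 and 642 in RBE, 276 and 297 in HuH-28, and 591 and 586 in SSP-25.

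The markers of other cell types were mixed. The T-cell gene CD3E and the myeloid gene TYROBP were listed at or near 0 in all 6 libraries, and the endothelial cadherin CDH5 was below 0.42 in all 6. CD14 had 0.523 and 0.595 in RBE, 6.77 and 10.3 in HuH-28, and 9.97 and 10.2 in SSP-25. Of 20 leukocyte markers 11 were below 1 in each RBE library. The 20 together summed to 1218 and 1215 in RBE, 1366 and 1807 in HuH-28, and 2111 and 2233 in SSP-25. Most of each sum was CD68, with 777 and 761 in RBE, 1278 and 1683 in HuH-28, and 1888 and 1967 in SSP-25. Leaving CD68 aside, the sums were highest in RBE. The 14 endothelial markers summed to 522 and 524 in RBE, 413 and 419 in HuH-28, and 170 and 174 in SSP-25. The 14 fibroblast and stellate markers summed to 999 and 1146 in RBE, against 54527 and 57419 in HuH-28 and 7511 and 7055 in SSP-25. Most of the SSP-25 sums was COL1A1, with 6952 and 6538 there and 43.5 and 43.9 in RBE. Leaving COL1A1 aside, the RBE sums were above those of SSP-25 and below those of HuH-28. DCN and LUM were below 1 in both RBE libraries, and DCN was also at most 0.00914 in SSP-25. Single members of these lists were nevertheless called. Of 13 leukocyte markers tested 4 were higher in RBE than in both lines (30.8%) and 2 lower (15.4%). Of 9 endothelial markers 3 were higher (33.3%) and 2 lower (22.2%), and of 14 fibroblast and stellate markers 1 was higher and 7 lower. These stand beside 11.3% higher and 10.5% lower of all genes tested. With a pseudocount of 10 the counts were 2 and 0 for each of the leukocyte and endothelial lists. LYZ, the secreted lysozyme, had 148 and 155 in RBE and at most 2.61 in the other lines. The integrin gene ITGAM of myeloid cells had 35.1 and 40.7 in RBE and at most 4.21 elsewhere, and PTPRC, the pan-leukocyte CD45, had 6.59 and 3.93 in RBE and at most 2.82 elsewhere. ESAM, an adhesion molecule of endothelial junctions, had 249 and 265 in RBE and at most 6.99 elsewhere. The endothelial sum was therefore highest in RBE, where ESAM and EGFL7, the latter with 242 and 225, made up most of it. KDR, another endothelial marker, was at most 0.00331 in RBE, with 273 and 258 in HuH-28 and 2.93 and 3.46 in SSP-25. The part of such marker transcripts in other results was not tested.

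Most of the transcription factors of liver and gut endoderm were above both lines. Of 31 such factors tested, 18 were higher in RBE than in both (58.1%) and 2 were lower, with a median log2 difference of 2.60 from the mean of the other lines. HNF4A, which directs the hepatocyte and intestinal programmes, had 172 and 171 in RBE, 0.196 and 0.140 in HuH-28, and 0.383 and 0.192 in SSP-25. The pioneer factor FOXA1 had 297 and 317 in RBE, 16.3 and 17.7 in HuH-28, and 29.1 and 32.2 in SSP-25. FOXA2 had 323 and 309 in RBE and at most 2.85 in any other library. These factors did not overlap between RBE and the other lines. ELF3, an epithelial ETS factor, had 1186 and 1044 in RBE, 65.0 and 78.4 in HuH-28, and 19.7 and 17.6 in SSP-25. NR0B2, the small heterodimer partner that curbs bile acid synthesis, had 207 and 181 in RBE, was at or below 0.00668 in HuH-28, and had 2.42 and 2.56 in SSP-25. KLF4 was also higher, with a log2 difference of 3.24 ± 0.07 from HuH-28 and 1.35 ± 0.07 from SSP-25 (adjusted p = 1.5e-07 and 7.5e-06). The exceptions were GATA6, an endoderm factor, with 40.5 and 35.4 in RBE, 667 and 556 in HuH-28, and 213 and 224 in SSP-25, and CEBPB, with 232 and 221 in RBE, 2890 and 1598 in HuH-28, and 728 and 778 in SSP-25.

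**Figure D2:**
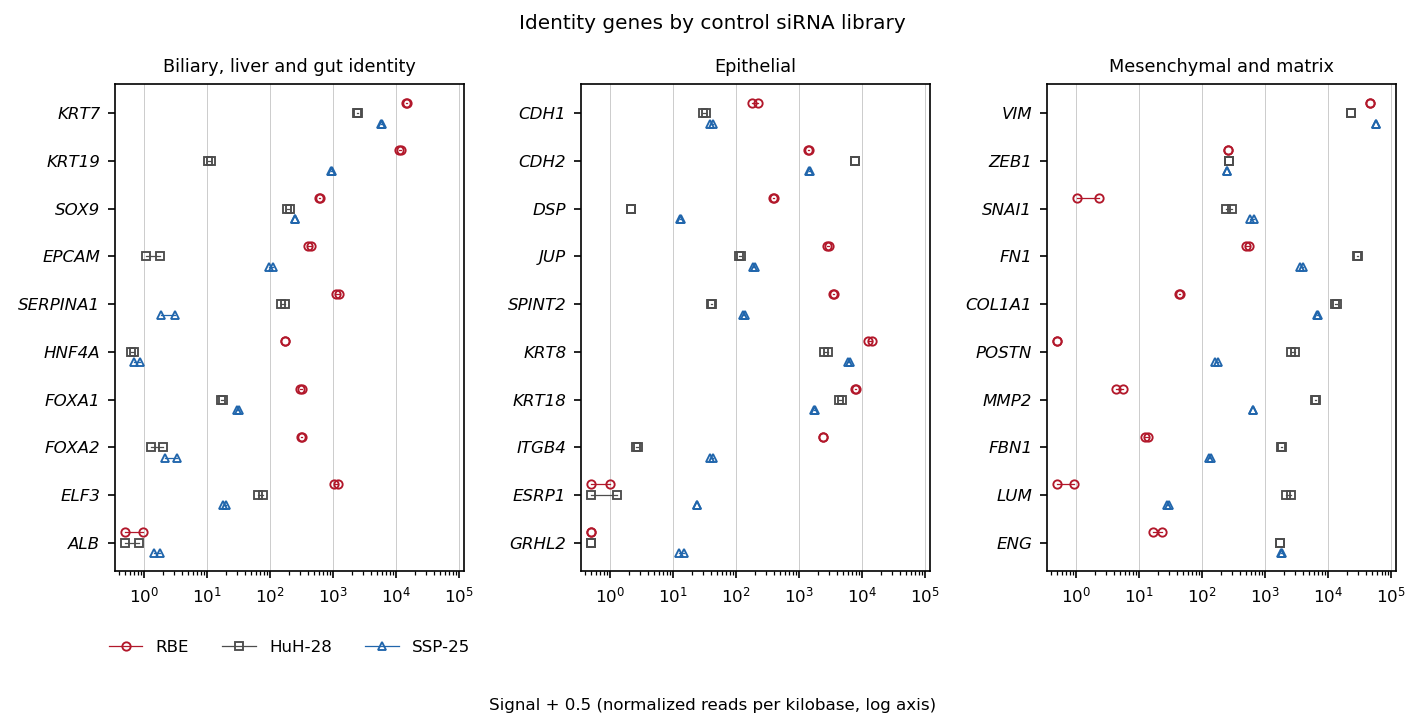
Signal + 0.5 on a log axis for 30 identity genes in each control siRNA library, with RBE as red circles, HuH-28 as grey squares and SSP-25 as blue triangles; each symbol is 1 library and a line joins the 2 libraries of a cell line. RBE lies to the right for most of the biliary, liver and gut genes, near or among the other lines for ALB, ESRP1, GRHL2, VIM and ZEB1, and to the left for the matrix genes.

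Hepatocyte products were higher in number but mostly low in level. Of 25 hepatocyte markers tested, 14 were higher in RBE than in both lines (56.0%) and 1 was lower, yet only 6 of the 25 had a mean signal of 20 or more, and of these 3 were higher and 1 lower. With a pseudocount of 10 the number higher was 9, and without either RBE library it was 3, where a gene seen in RBE alone cannot pass the filter. SERPINA1, which encodes alpha-1 antitrypsin, had 1244 and 1113 in RBE, 147 and 174 in HuH-28, and 2.58 and 1.37 in SSP-25. AMBP, the precursor of bikunin, had 1010 and 1003 in RBE, 3.55 and 1.07 in HuH-28, and 55.0 and 53.7 in SSP-25. The plasma glycoprotein gene APOH had 257 and 178 in RBE and stayed below 1 in both other lines. The fibrinogen chains FGB and FGA had 57.1 and 49.5, and 31.6 and 26.5, in the RBE libraries and at most 0.298 elsewhere. Against these, the defining hepatocyte gene ALB was at 0 and 0.469 in RBE, APOA1 at 0 and 1.17, and the fetal liver gene AFP at 1.84 and 0.525, beside 68.8 and 60.1 for AFP in SSP-25. HPD, a tyrosine-degrading enzyme, was the lower member, with 3.88 and 2.81 in RBE, 87.4 and 99.2 in HuH-28, and 130 and 119 in SSP-25.

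The binding letters of some of these factors, and of others, were searched in RefSeq promoters, 300 bases reaching from 250 before to 50 after each start in GRCh38.p14, for 12414 tested genes that had one. Both strands were read, and N stands for any base. The HNF4 string CAAAGTCCA was in 33 of all promoters (0.266%), in 8 of 1311 promoters of genes higher in RBE (0.61%), and in 1 of 1287 promoters of genes lower in RBE (0.0777%). For the forkhead string TGTTTAC the shares were 2.37%, 2.59% and 2.49%. The AP-1 string TGANTCA was in 5.3% of all promoters, 7.02% of those of higher genes and 7.85% of those of lower genes. The NF-kB string GGGNNTTCC was in 7.8% of all promoters, 6.79% of those of higher genes and 6.76% of those of lower genes. The TATA box string TATAAA was in 7.22% of all promoters, 8.92% of those of higher genes and 11.3% of those of lower genes. For the GATA string GATAAG the shares were 4.36%, 5.34% and 4.27%, and for the TEAD string GGAATG they were 11.1%, 11.8% and 10.7%. The direct repeat string CAAAGGTCA was in 0.306%, 0.229% and 0.233%, and the E-box string TCACGTGA in 1.69%, 0.839% and 1.71%. All 9 strings, and others that are not given, were searched after the expression values had been seen. No test was made, and a match is a stretch of letters and not a shown binding site. Of the 8 higher genes that hold the HNF4 letters, all but PDZK1, where the match runs across the start, are printed here beside the level of HNF4A. The matched letters are in capitals, each sequence is given 5′ to 3′ on the strand of its gene, and all lie upstream of the start.
ABLIM1: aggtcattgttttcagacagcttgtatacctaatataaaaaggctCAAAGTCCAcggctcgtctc
UNC5CL: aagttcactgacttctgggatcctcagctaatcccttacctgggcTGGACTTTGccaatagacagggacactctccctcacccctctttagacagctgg
C19orf21: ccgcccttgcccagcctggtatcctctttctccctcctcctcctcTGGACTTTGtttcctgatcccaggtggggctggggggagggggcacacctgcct
EGFL7: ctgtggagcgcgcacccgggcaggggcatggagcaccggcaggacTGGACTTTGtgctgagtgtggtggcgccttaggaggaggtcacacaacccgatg
MUC13: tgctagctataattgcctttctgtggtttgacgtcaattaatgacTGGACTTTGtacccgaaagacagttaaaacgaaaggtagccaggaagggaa
GPR35: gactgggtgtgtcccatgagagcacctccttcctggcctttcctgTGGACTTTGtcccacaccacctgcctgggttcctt
AHSG: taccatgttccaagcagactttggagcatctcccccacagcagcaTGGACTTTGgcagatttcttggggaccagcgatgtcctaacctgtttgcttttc

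These stretches of GRCh38.p14 lie at chr10:114685004-114685068 (-) for ABLIM1, chr6:41039315-41039413 (-) for UNC5CL, chr19:750955-751053 (+) for C19orf21, chr9:136658616-136658714 (+) for EGFL7, chr3:124934752-124934847 (-) for MUC13, chr2:240605350-240605429 (+) for GPR35 and chr3:186612836-186612934 (+) for AHSG, with the strand in brackets. The match begins 20 bases before the start in ABLIM1, 147 in UNC5CL, 112 in C19orf21, 195 in EGFL7, 51 in MUC13, 35 in GPR35 and 179 in AHSG. ABLIM1, an actin-binding LIM protein, had 1028 and 1033 in RBE, 37.9 and 36.5 in HuH-28, and 500.3 and 513 in SSP-25. UNC5CL had 422 and 406 in RBE, 13 and 11.4 in HuH-28, and 1.26 and 1.93 in SSP-25. C19orf21 had 360 and 348 in RBE, at most 0.00302 in HuH-28, and 19.7 and 22.6 in SSP-25. EGFL7, which is secreted by endothelial cells, had 242 and 225 in RBE, 88.7 and 103 in HuH-28, and 75.1 and 73.2 in SSP-25. RBE lay above both lines for each of these genes, by which they had been chosen. MUC13, a transmembrane mucin of gut and duct epithelium, had 23 and 18.2 in RBE, 2.29 and 1.37 in HuH-28, and 0.376 and 0.699 in SSP-25. GPR35, a receptor of gut epithelium, had 19.9 and 21.6 in RBE, 1.97 and 2.45 in HuH-28, and 0.825 and 0.776 in SSP-25. AHSG, the plasma protein fetuin-A of liver, was low throughout, with 2.44 and 2.00 in RBE and at most 0.651 elsewhere.

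Among the genes that led the higher group, the signal in RBE was high and that of the other lines was near 0. The leading 15 were taken from 764 genes with a mean signal of 100 or more in RBE, by the smaller of the 2 log2 differences, and no fold is given where a library is listed at 0. TESC, a calcium-binding regulator of the sodium-proton exchanger, had 4720 and 4106 in RBE, 2.98 and 0 in HuH-28, and 1.05 and 1.96 in SSP-25. FXYD2, the gamma subunit of the sodium pump that is known from kidney tubules, had 2289 and 2001 in RBE and at most 1.60 elsewhere. The readthrough gene FXYD6-FXYD2 overlaps it and shares its reads, so that its 997 and 878 in RBE are not a separate measurement. CLDN2, which forms cation and water pores in tight junctions, had 1965 and 1687 in RBE, 3.57 and 2.65 in HuH-28, and 2.02 and 5.10 in SSP-25. These are genes of ion and water transport in epithelia. SERPINA3, the plasma antichymotrypsin, had 2259 and 2054 in RBE, 1.93 and 0 in HuH-28, and 2.67 and 0.634 in SSP-25. IGFBP1, an insulin-like growth factor binding protein of liver, had 445 and 422 in RBE and at most 1.30 elsewhere. The membrane chemokine CX3CL1 had 410 and 429 in RBE and stayed below 0.63 elsewhere. DDC, the aromatic amino acid decarboxylase that also marks proximal tubule and gut, had 233 and 223 in RBE and at most 0.0678 elsewhere. KIF12, a kinesin known from kidney and bile duct epithelium, had 869 and 867 in RBE, 1.18 and 2.19 in HuH-28, and 0.537 and 1.5 in SSP-25. The remaining leaders were TM4SF4, TM4SF18, TOX3, C14orf105 and MAB21L2, with between 407 and 1379 in the RBE libraries and at most 1.28 in the others, and MT1E.

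MT1E is a metallothionein, a small metal-binding protein, and its neighbours in the family were not all apart. It had 5428 and 5213 in RBE, 4.04 and 1.45 in HuH-28, and 3.90 and 0.00578 in SSP-25. MT1M had 107 and 162 in RBE, at most 0.0182 in HuH-28, and 4.31 and 2.28 in SSP-25. MT2A, in contrast, had 6889 and 6775 in RBE, 6471 and 6791 in HuH-28, and 5481 and 6271 in SSP-25, with log2 differences of 0.04 ± 0.08 and 0.22 ± 0.08 (adjusted p = 0.65 and 0.048). Of 11 metallothionein list members tested, 3 were higher than in both lines (27.3%, beside 11.3% of all genes) and 0 were lower. These counts were the same at an unadjusted p under 0.05 in limma with no minimum size. Metallothionein copies are alike in sequence and short reads can be split between them, so that the single members are uncertain.

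In all, 27 genes were at 100 or more in both RBE libraries and below 1 in all 4 others. They included the brush-border genes VIL1 and USH1C, the apolipoprotein B editing cofactor A1CF, the drug-metabolizing enzyme CYP3A5 and the ligand SHH. VIL1 had 177 and 171 in RBE and at most 0.366 elsewhere, and CYP3A5 had 157 and 166 and stayed below 0.95 elsewhere. The same count was 52 for HuH-28 and 15 for SSP-25.

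**Figure D3:**
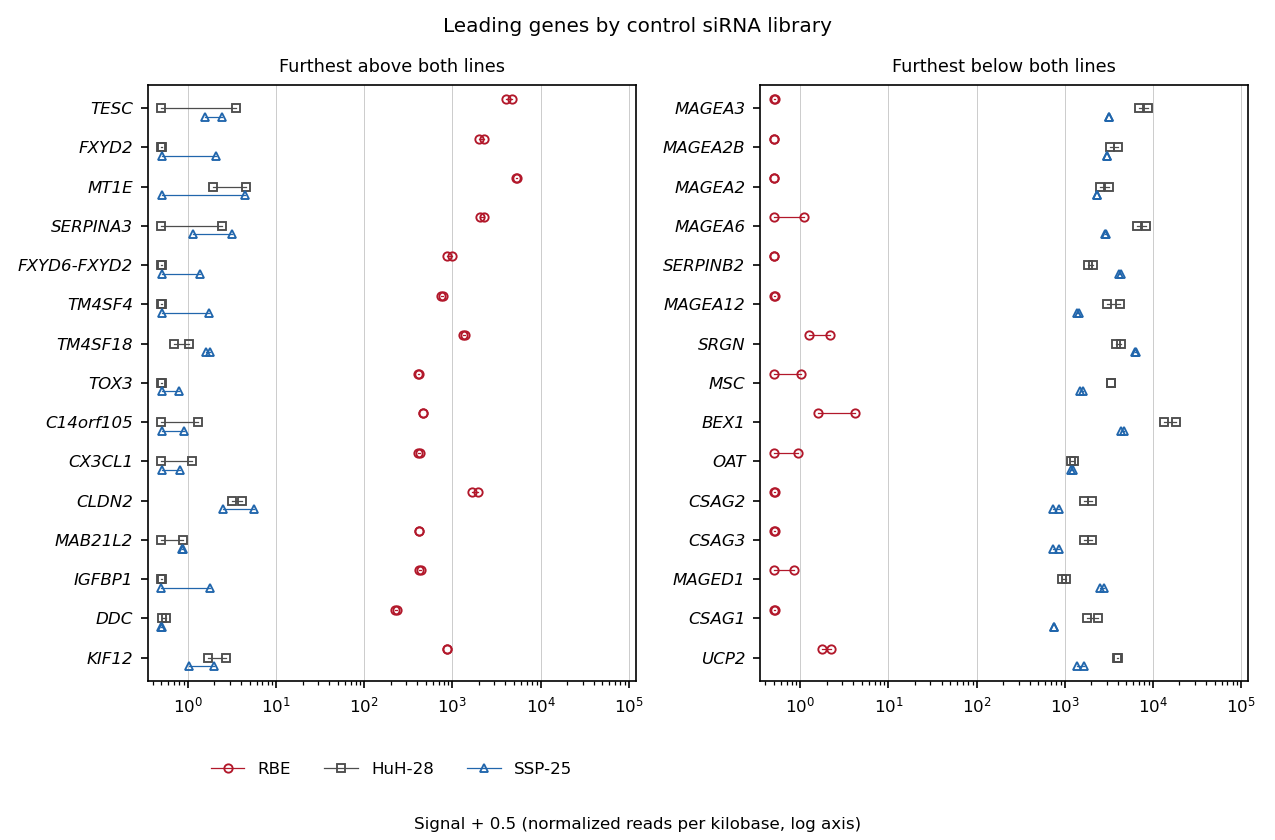
Signal + 0.5 on a log axis for the 15 genes furthest above (left) and the 15 furthest below (right) both other lines, with RBE as red circles, HuH-28 as grey squares and SSP-25 as blue triangles, 1 symbol per library. RBE and the other lines do not overlap for any of these 30 genes, which were chosen by that difference.

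Of 34 epithelial genes tested, 12 were higher in RBE than in both lines (35.3%, beside 11.3% of all genes tested) and 1 was lower, so that most were not called. Of 17 claudins tested, 3 were higher (17.6%) and 0 lower. CDH1, which encodes E-cadherin, had 226 and 179 in RBE, 30.0 and 33.3 in HuH-28, and 39.0 and 43.2 in SSP-25. JUP, the plakoglobin of junctions and desmosomes, had 3015 and 2744 in RBE, 121 and 110 in HuH-28, and 187 and 202 in SSP-25. DSP, the desmosomal plaque protein, had 399 and 381 in RBE, 1.68 and 1.65 in HuH-28, and 13 and 12.6 in SSP-25. SPINT2, a membrane inhibitor of serine proteases, had 3552 and 3407 in RBE, 40.2 and 41.3 in HuH-28, and 127 and 139 in SSP-25. For these 4 genes the RBE libraries were the highest. CLDN4 separated RBE from HuH-28 alone, with 1940 and 1891 in RBE, 3.93 and 4.40 in HuH-28, and 1835 and 1835 in SSP-25. The splicing regulator ESRP1 was at 0.499 and 0.00501 in RBE, beside at most 0.808 in HuH-28 and 24.1 and 23.5 in SSP-25. GRHL2, a factor that maintains epithelial junction genes, was at 0 and 0.00357 in RBE, at most 0.00153 in HuH-28, and 11.9 and 14.5 in SSP-25. Both regulators were thus near 0 in RBE.

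Of 25 keratins tested, 10 were higher than in both lines and 1 was lower, beside 11.3% higher and 10.5% lower of all genes. With a log2 difference above 2 required 4 keratins were higher, beside 935 of all 15602 genes. KRT8 had 14529 and 12590 in RBE, 2499 and 2861 in HuH-28, and 5972 and 6465 in SSP-25. KRT18, its partner in filaments, was less far from HuH-28, with 7931 and 7705 in RBE, 4272 and 4878 in HuH-28, and 1701 and 1802 in SSP-25, and was not called against both. The hair keratin KRT81 had 3551 and 3158 in RBE, 72.3 and 85.9 in HuH-28, and 186 and 183 in SSP-25, but KRT83 and KRT86 are close copies among which reads can be split. ITGB4, the integrin of hemidesmosomes, had 2437 and 2385 in RBE, 2.34 and 2.10 in HuH-28, and 38.4 and 43.0 in SSP-25. Its partner ITGA6 had 2193 and 2231 in RBE, 785 and 739 in HuH-28, and 285 and 330 in SSP-25. Both integrin genes thus stood above both lines, while of all 24 integrins tested 7 were higher (29.2%) and 4 lower (16.7%), or 4 and 3 of those with a mean signal of 20 or more.

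Of 40 mesenchymal genes tested, 23 were lower in RBE than in both lines, a share of 57.5% beside 10.5% of all genes, and 0 were higher. At an unadjusted p under 0.05 in both limma comparisons and with no minimum size, 3 were higher and 26 lower, beside 3763 and 3728 of all 15602 genes. The median log2 difference was -4.17 from HuH-28 and -2.10 from SSP-25. COL1A1, the main fibrillar collagen, had 43.5 and 43.9 in RBE, 13992 and 12720 in HuH-28, and 6952 and 6538 in SSP-25. FN1, which encodes fibronectin, had 554 and 498 in RBE, 28139 and 29762 in HuH-28, and 3534 and 3937 in SSP-25. MMP2, a gelatinase, had 5.21 and 3.81 in RBE, 6146 and 6476 in HuH-28, and 636 and 638 in SSP-25. POSTN, or periostin, was at 0 and 0.00594 in RBE, against 2616 and 2958 in HuH-28 and 182 and 158 in SSP-25. In each case RBE was lowest, SSP-25 intermediate and HuH-28 highest. The endothelial and stromal receptor ENG had 16.1 and 22.8 in RBE, 1710 and 1713 in HuH-28, and 1783 and 1847 in SSP-25.

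The repressors of E-cadherin were not uniform. SNAI1 had 0.555 and 1.86 in RBE, 299 and 242 in HuH-28, and 668 and 570 in SSP-25. SNAI2 had 73.2 and 90.7 in RBE, 841 and 908 in HuH-28, and 723 and 629 in SSP-25. ZEB1, in contrast, had 259 and 260 in RBE, 268 and 271 in HuH-28, and 252 and 249 in SSP-25, with log2 differences of -0.05 ± 0.06 and 0.05 ± 0.06 (adjusted p = 0.41 and 0.42). ZEB1 was thus within a narrow range in all 6 libraries. VIM, the intermediate filament of mesenchymal cells, was also high in RBE, with 46837 and 45242, against 23296 and 22601 in HuH-28 and 57948 and 57055 in SSP-25. CDH2, which encodes N-cadherin, had 1420 and 1379 in RBE, 7829 and 7776 in HuH-28, and 1414 and 1501 in SSP-25. RBE therefore carried E-cadherin and keratin transcripts above both lines together with vimentin and N-cadherin transcripts that were not below both.

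**Figure D4:**
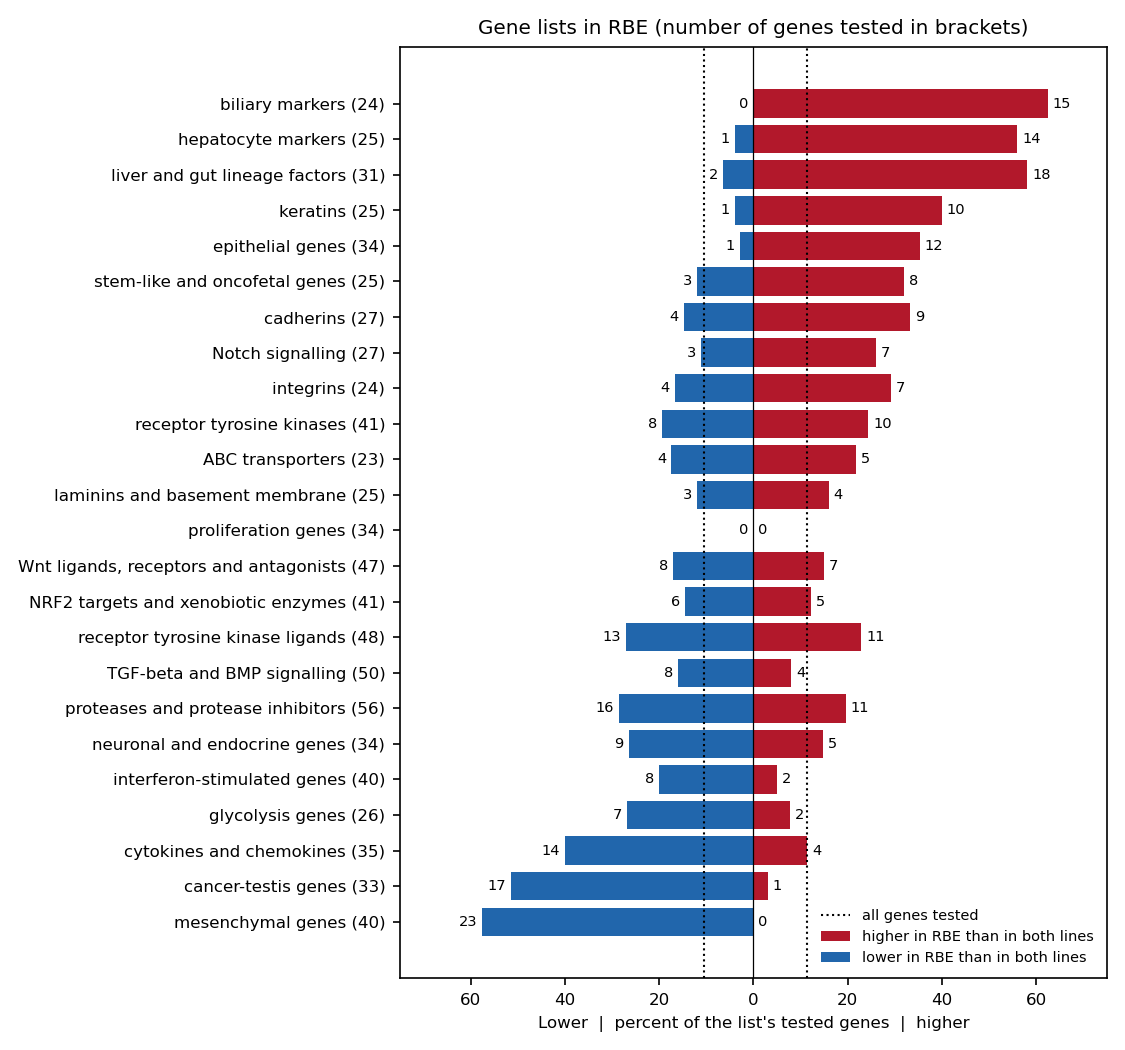
Share of each list's tested genes that were higher (red, right) or lower (blue, left) in RBE than in both other lines, for lists with at least 20 genes tested; the numbers at the bars are gene counts and the dotted lines are the shares over all genes tested, 11.3% and 10.5%. Biliary markers, hepatocyte markers and endoderm factors reach furthest to the right, and mesenchymal and cancer-testis genes furthest to the left.

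Most genes of HLA class I presentation were lower in RBE than in both lines. Of 18 tested, 12 were lower (66.7%, beside 10.5% of all genes) and 0 higher. At an unadjusted p under 0.05 in limma with no minimum size, 16 were lower and 1 higher, beside 3728 lower and 3763 higher of all 15602 genes. The heavy chain gene HLA-B had 1946 and 1860 in RBE, 37173 and 45737 in HuH-28, and 27000 and 27455 in SSP-25. B2M, the light chain, had 14100 and 13026 in RBE, 46700 and 65480 in HuH-28, and 41823 and 43147 in SSP-25. The classical heavy chains and HLA-F are alike in sequence and vary between people, and the reads of a line may match the reference genes unequally. Genes outside that family were also below both lines: the immunoproteasome subunit PSMB9 had 179 and 178 in RBE, 1234 and 1274 in HuH-28, and 1929 and 1744 in SSP-25. The peptide transporter TAP1 had 280 and 264 in RBE, 1300 and 1289 in HuH-28, and 1101 and 1059 in SSP-25. NLRC5, the transactivator of class I genes, had 17.7 and 21.1 in RBE, 315 and 308 in HuH-28, and 154 and 132 in SSP-25. Of 12 genes of HLA class II presentation tested, 4 were lower than in both lines (33.3%) and 1 was higher, and with a mean signal of 20 or more 0 were lower. The one higher was the class II chaperone CD74, with 82.1 and 100.2 in RBE, 24.8 and 25.3 in HuH-28, and 3.75 and 3.58 in SSP-25.

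Of 35 cytokines and chemokines tested 14 were lower in RBE than in both lines, beside 10.5% of all genes, and 4 were higher (11.4%). IL6 was at 0 and 0.0170 in RBE, against 4199 and 4717 in HuH-28 and 186 and 193 in SSP-25. The neutrophil chemokine IL8 had 28.1 and 35.6 in RBE, 901 and 923 in HuH-28, and 240 and 316 in SSP-25. CSF1, the macrophage growth factor, had 223 and 229 in RBE, 905 and 834 in HuH-28, and 917 and 935 in SSP-25. Of 40 interferon-stimulated genes tested 8 were lower than in both, beside 10.5% of all genes, and 2 were higher, beside 11.3%. At an unadjusted p under 0.05 in limma with no minimum size, 21 were lower and 3 higher. Of all 15602 genes, 3728 were lower and 3763 higher in this way. With a pseudocount of 10, 3 of the list were lower and 1 higher, where 1096 of all 15602 genes were lower. ISG15, a ubiquitin-like modifier, had 137 and 118 in RBE, 1365 and 1452 in HuH-28, and 830 and 806 in SSP-25.

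Several ligands of the EGF receptor were above both lines, while the receptor itself was not. AREG, or amphiregulin, had 2784 and 2693 in RBE, 2.47 and 1.27 in HuH-28, and 75.1 and 73.9 in SSP-25. EREG, or epiregulin, had 1194 and 1261 in RBE, 3.53 and 2.25 in HuH-28, and 3.67 and 4.13 in SSP-25. TGFA had 1125 and 1155 in RBE, 56.5 and 51.0 in HuH-28, and 52.1 and 50.4 in SSP-25, a log2 difference of 4.40 ± 0.08 from HuH-28 and 4.46 ± 0.08 from SSP-25 (adjusted p = 6.8e-08 and 1.3e-07). EGFR had 602 and 603 in RBE, 450 and 327 in HuH-28, and 790 and 800 in SSP-25, so that RBE lay between the other lines. The other ligands differed among themselves. BTC, or betacellulin, was higher, with 82.8 and 97.9 in RBE, at most 0.00634 in HuH-28, and 30.6 and 44.1 in SSP-25. EPGN, or epigen, was lower, with 0.620 and 0.682 in RBE, 78.0 and 81.8 in HuH-28, and 7.83 and 9.69 in SSP-25. EGF itself had 12.9 and 14 in RBE, 0.731 and 0.996 in HuH-28, and 65.5 and 65.7 in SSP-25, and HBEGF was not called. Over all receptor tyrosine kinase ligands, 11 of 48 tested were higher (22.9%) and 13 lower (27.1%), and with a pseudocount of 10 the number lower was 6. VEGFC, the lymphatic growth factor, was among the lower, with 34.5 and 32.7 in RBE, 759 and 698 in HuH-28, and 820 and 801 in SSP-25.

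Among the receptors, 10 of 41 tested were higher in RBE than in both lines (24.4%, beside 11.3% of all genes) and 8 were lower (19.5%, beside 10.5%). With a pseudocount of 10 these counts were 6 and 3. FGFR4, the receptor through which FGF19 acts on hepatocytes, had 1165 and 1124 in RBE, 9.94 and 9.67 in HuH-28, and 10.3 and 11.4 in SSP-25. ERBB3, which pairs with other receptors of its family, had 125 and 103 in RBE, 18.5 and 18.7 in HuH-28, and 5.91 and 5.95 in SSP-25. ROS1 was at 0 and 0.00272 in RBE, against 280 and 243 in HuH-28 and 97.4 and 83.5 in SSP-25. The list as a whole had a median log2 difference of 0.05.

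Of 27 Notch genes tested 7 were higher (25.9%) and 3 lower (11.1%), with NRARP, a transcript that Notch induces, at 388 and 405 in RBE, 88.3 and 65.1 in HuH-28, and 4.46 and 4.61 in SSP-25. The Hedgehog ligand SHH had 121 and 104 in RBE and at most 0.0143 elsewhere, while PTCH1, a receptor that the pathway induces, was lower, with 28.4 and 25.9 in RBE, 62.3 and 60.6 in HuH-28, and 87.2 and 84.7 in SSP-25. Of 47 Wnt ligands, receptors and antagonists tested 7 were higher (14.9%, beside 11.3% of all genes) and 8 lower (17%, beside 10.5%). Of the 21 with a mean signal of 20 or more, 4 were higher and 4 lower, beside 983 and 1245 of all 12138 such genes. WNT5A, a ligand of the non-canonical branch, had 14.2 and 17.0 in RBE, 636 and 575 in HuH-28, and 216 and 226 in SSP-25. LGR4, a receptor for R-spondins, had 1665 and 1594 in RBE, 181 and 145 in HuH-28, and 108 and 121 in SSP-25. INHBA, a subunit of activin, had 4.85 and 7.26 in RBE, 3056 and 3164 in HuH-28, and 227 and 215 in SSP-25. Single members of these lists thus lay far above or far below both lines.

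Of 26 glycolysis genes tested, 7 were lower than in both lines (26.9%) and 2 higher (7.69%), and most were not called. SLC16A3, the lactate exporter, had 277 and 259 in RBE, 6430 and 6388 in HuH-28, and 5836 and 5975 in SSP-25. SLC2A1, the glucose transporter of most cultured cells, had 406 and 419 in RBE, 2410 and 2262 in HuH-28, and 2944 and 2995 in SSP-25. The first enzyme of the chain, HK1, had 349 and 355 in RBE, 2078 and 2248 in HuH-28, and 2621 and 2588 in SSP-25. LDHB had 141 and 133 in RBE, 2308 and 2785 in HuH-28, and 14840 and 14306 in SSP-25, whereas its partner subunit LDHA had 12806 and 12627 in RBE, 13848 and 14469 in HuH-28, and 9156 and 9492 in SSP-25. PFKFB3, which makes an activator of phosphofructokinase, was higher, with 2219 and 2114 in RBE, 268 and 251 in HuH-28, and 520 and 502 in SSP-25. IDH1, the cytosolic isocitrate dehydrogenase, had 2805 and 2731 in RBE, 688 and 710 in HuH-28, and 1386 and 1358 in SSP-25, a log2 difference of 1.01 ± 0.05 from SSP-25, just past the size a call needs.

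Of 41 NRF2 targets and xenobiotic enzymes tested, 5 were higher than in both lines (12.2%, beside 11.3% of all genes) and 6 lower (14.6%, beside 10.5%). Against the mean of the other lines 14 were higher and 12 lower, beside 2836 and 3186 of all 15602 genes. The median log2 difference of the list was 1.08 from HuH-28 and -1.77 from SSP-25. Single members differed. GSTP1, a glutathione transferase, had 327 and 334 in RBE, 3317 and 3067 in HuH-28, and 7566 and 7287 in SSP-25. HMOX1, the haem oxygenase, had 207 and 215 in RBE, 1363 and 1401 in HuH-28, and 1472 and 1393 in SSP-25. ALDH1A3, which makes retinoic acid, had 4762 and 4491 in RBE, 276 and 292 in HuH-28, and 197 and 186 in SSP-25. UGT1A6 had 9.49 and 8 in RBE, 2613 and 3041 in HuH-28, and 2402 and 2198 in SSP-25. The UGT1A genes share their last exons and are best read as 1 locus, although each symbol entered the counts as a separate gene.

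Among the genes furthest below both lines, 10 of the leading 15 lie on the X chromosome. They were taken from 786 genes with a mean signal of 100 or more in each of the other lines and no overlap between the RBE libraries and the others. The higher leader CLDN2 also lies on X. MAGEA3, a cancer-testis antigen, was at 0 and 0.0117 in RBE, against 6968 and 8839 in HuH-28 and 3144 and 3146 in SSP-25. MAGEA2, MAGEA2B, MAGEA6, MAGEA12, CSAG1, CSAG2 and CSAG3 also stayed below 0.61 in both RBE libraries, and each was at 744 or more in all 4 others. The MAGEA genes are close copies of each other, as are the CSAG genes, and all are neighbours on X. CSAG2 and CSAG3 have the same values in every library, and the group is best read as 1 or a few loci. Over the cancer-testis list, 17 of 33 members tested were lower than in both lines (51.5%, beside 10.5% of all genes) and 1 was higher. With a pseudocount of 10 the number lower was 10, beside 1096 of all 15602 genes. Other X-linked genes among the leaders lie outside that cluster. MAGED1, an adaptor expressed in most tissues, was at 0 and 0.359 in RBE, against 1025 and 940 in HuH-28 and 2751 and 2542 in SSP-25. BEX1, a small signalling adaptor, had 1.10 and 3.68 in RBE, 13194 and 18132 in HuH-28, and 4672 and 4385 in SSP-25.

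The autosomal leaders on the low side were SERPINB2, SRGN, MSC, OAT and UCP2. SERPINB2, an inhibitor of plasminogen activators, was at 0 and 0.00929 in RBE, against 1855 and 2086 in HuH-28 and 4331 and 4076 in SSP-25. SRGN, the core protein of a granule proteoglycan, had 0.754 and 1.69 in RBE, 3790 and 4392 in HuH-28, and 6306 and 6371 in SSP-25. OAT, the mitochondrial ornithine aminotransferase, had 0.451 and 0.00960 in RBE, 1175 and 1288 in HuH-28, and 1182 and 1228 in SSP-25. UCP2, a carrier of the inner mitochondrial membrane, had 1.74 and 1.29 in RBE, 3928 and 3970 in HuH-28, and 1638 and 1387 in SSP-25. The transcription factor MSC had 0 and 0.521 in RBE and at least 1471 in every other library.

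In all, 33 genes were below 1 in both RBE libraries and at 100 or more in all 4 others, and 16 of them lie on X. For comparison, 261 of the 7962 placed genes at 100 or more in all 4 of those libraries lie on X (3.28%). The same count was 9 for HuH-28, 0 of them on X, and 3 for SSP-25, 1 of them on X. Of the 16, the MAGEA and CSAG copies make up 8. The others included DYNLT3, a dynein light chain, with 0 and 0.00908 in RBE, 332 and 434 in HuH-28, and 698 and 813 in SSP-25. PRPS2, which makes the sugar precursor of nucleotides, was at 0 and 0.835 in RBE, against 1721 and 1935 in HuH-28 and 573 and 652 in SSP-25.

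Genes from the short arm of chromosome 9 around the CDKN2A locus were near 0 in RBE as a run. MTAP, which salvages methylthioadenosine, was at 0 and 0.00409 in RBE, 217 and 223 in HuH-28, and 163 and 167 in SSP-25. CDKN2A, which encodes the p16 and ARF tumour suppressors, had 0.917 and 1.53 in RBE, 1528 and 1565 in HuH-28, and 321 and 336 in SSP-25. CDKN2B, its neighbour, had 0 and 0.798 in RBE, 428 and 449 in HuH-28, and 158 and 160 in SSP-25. In gene order DMRTA1 and ELAVL2 followed, at most 0.00858 in RBE, with 24.0 and 24.6 and with 97.9 and 103 in HuH-28, and with 58.9 and 54.7 and with 7.63 and 9.34 in SSP-25. The genes on both sides of this run were expressed in RBE. KLHL9, before MTAP, had 136 and 132 in RBE, 184 and 172 in HuH-28, and 227 and 254 in SSP-25, and TUSC1, after ELAVL2, had 52.2 and 57.5 in RBE, 183 and 180 in HuH-28, and 239 and 244 in SSP-25. Genes of this stretch that stayed under 20 in all 6 libraries were not considered, and the DNA of the line was not analysed here. CDKN1A, an inhibitor of the same kinases on another chromosome, was higher, with 4504 and 4328 in RBE, 883 and 880 in HuH-28, and 505 and 457 in SSP-25.

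Along the chromosomes, the lower genes were unevenly spread. The median log2 difference of RBE from the mean of the other lines was -0.70 over 450 genes on X with a mean signal of 20 or more, and -0.03 over all 12034 such genes placed. On X, 113 genes were lower than in both lines (25.1%, beside 10.3% of all placed) and 22 were higher. On chromosome 1 the median was -0.23 over 1214 genes, of which 228 were lower than in both (18.8%). Medians were lower still on chromosomes 3 (-0.39), 6 (-0.36), 20 (-0.34) and 19 (-0.27). The shares lower than in both were 12.7%, 14.6%, 8.56% and 7.48% there. When the genes were divided into 299 stretches of about 40 neighbours, 17 stretches had medians under -0.8 from each other line. Of these, 8 lay on chromosome 1, 2 each on chromosomes 3, 5 and X, and 1 each on chromosomes 6, 11 and 14. No stretch had both medians above 0.8. The stretch of chromosome 1 from KIF1B to EPHA2 had medians of -1.29 from HuH-28 and -1.19 from SSP-25, with 21 of 41 genes lower than in both and 0 higher. A second one, from CDC7 to EXTL2, had -1.11 and -1.36, with 17 of 41 lower. The stretch of chromosome 6 from GMNN to HIST1H2BO had -1.80 and -1.08, with 20 of 40 lower and 4 higher. These stretches were defined after the values had been seen, and both comparisons share the RBE libraries. On chromosome 12 the balance was the other way, with 85 of 633 genes higher (13.4%, beside 8.12% of all placed) and 30 lower.

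**Figure D5:**
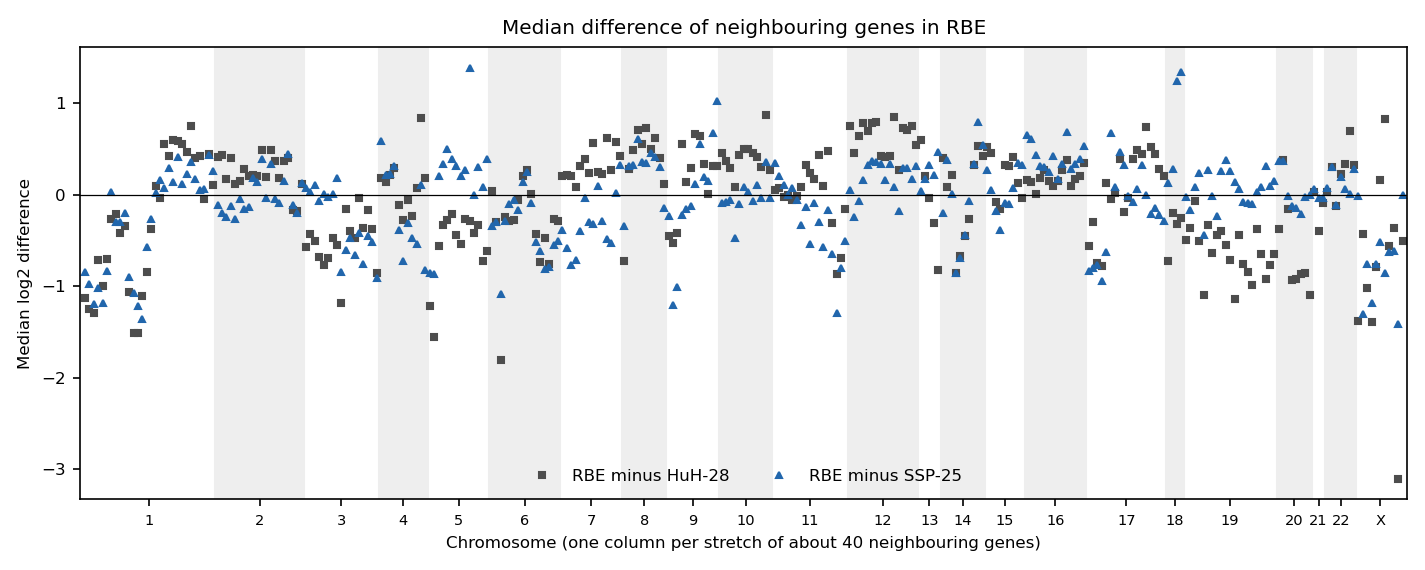
Median log2 difference of RBE from HuH-28 (grey squares) and from SSP-25 (blue triangles) for 299 stretches of about 40 neighbouring genes with a mean signal of 20 or more, in RefSeq gene order, with chromosomes alternately shaded. Both medians lie below -0.8 in 17 stretches, with 8 on chromosome 1, 2 each on chromosomes 3, 5 and X, and 1 each on chromosomes 6, 11 and 14.

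The genes that the study followed with LKB1 siRNA were mostly not particular to RBE at baseline. STK11, which encodes LKB1, had 485 and 430 in RBE, 698 and 600 in HuH-28, and 464 and 459 in SSP-25, a log2 difference of -0.50 ± 0.09 from HuH-28 and -0.02 ± 0.09 from SSP-25 (adjusted p = 0.002 and 0.9). By fluorescence in situ hybridization the study reported trisomy of this gene in RBE, while HuH-28 and SSP-25 were diploid for it. How copy number relates to these values was not tested. Of 11 subunits of the LKB1 complex and of AMPK tested, 0 were called in either direction, beside 11.3% higher and 10.5% lower of all genes. At an unadjusted p under 0.05 in limma with no minimum size, 2 were higher and 2 lower, beside 3763 and 3728 of all 15602 genes. HIF1A had 1192 and 1218 in RBE, 4078 and 3855 in HuH-28, and 737 and 839 in SSP-25, and the beta-catenin gene CTNNB1 had 3273 and 3190 in RBE, 4623 and 4496 in HuH-28, and 2520 and 2527 in SSP-25. RBE lay between the other lines for both. TLN1, the integrin-binding talin, was lower than in both, with 249 and 243 in RBE, 1041 and 948 in HuH-28, and 558 and 548 in SSP-25. CCND1, or cyclin D1, was higher than in both, with 6414 and 6719 in RBE, 1714 and 1519 in HuH-28, and 2267 and 2579 in SSP-25. MYC had 1684 and 1830 in RBE, 654 and 624 in HuH-28, and 1828 and 1835 in SSP-25.

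Proliferation genes did not separate RBE from both lines by the size of a call. Of 34 tested, 0 were higher and 0 lower than in both, beside 11.3% and 10.5% of all genes. With no minimum size, 8 were higher and 8 lower at an unadjusted p under 0.05 in both limma comparisons. That is near the share of all genes, where 3763 and 3728 of 15602 were higher and lower in this way. The helicase subunit MCM4 had 2503 and 2475 in RBE, 1553 and 1502 in HuH-28, and 1413 and 1422 in SSP-25. The mitotic kinase gene AURKA had 1615 and 1528 in RBE, 3402 and 3376 in HuH-28, and 2883 and 2852 in SSP-25. Both lay outside the range of the other lines by less than 1 on the log2 scale in at least one comparison.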

How the data were processed

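RNA of 3 cell lines (TRIzol, TruSeq libraries, single-end Illumina reads) was deposited by the authors as 1 table of normalized reads per kilobase, treated here as a signal. The study's methods name NextGENe with RefSeq mRNA, whereas TopHat 1.2.0, edgeR and the build hg19 stand in the submitters' processing notes. No source used here says which of them gave the table. Reads per gene and strand were not used. Of 18815 rows, 17 repeats were left out, 28 have a date as symbol and 130 share all control values with another symbol. Genes that reached a signal of 1 in 2 or more of the control libraries were tested on log2(signal + 0.5) with limma 3.58.1 (R 4.3.3; line means, trended variance, 3 residual degrees of freedom) and Benjamini-Hochberg adjustment over 15602 genes. An exact permutation of 2 against 4 libraries, as in the comparison with the mean of the other lines, cannot go below p = 0.067. The limit is higher for the pairwise comparisons behind the calls against both lines, which have fewer libraries. The fit was tested on simulated data. Low differences depend on the pseudocount. The 42 gene lists, members and cell type markers were chosen with earlier results of these data known. Named were the 15 genes per direction with the largest smaller difference, up to 5 members of a list by p, the markers and the genes the study followed; FOXA2, GATA6, CEBPB, APOH, SNAI2, SNAI1, B2M, NLRC5, EGFR, ERBB3, LDHA, ABLIM1, UNC5CL, MUC13, GPR35, AHSG, C19orf21, PDZK1, EGF, HBEGF, BTC, EPGN, CDKN2B, KLHL9, TUSC1, VIL1, USH1C, A1CF, CYP3A5, DYNLT3 and PRPS2 were chosen after their values were seen. Gene order came from RefSeq names (18550 symbols placed). Some results are not reported here.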

Additional observations from a re-analysis of the deposited data

How the results depend on the processing

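Each line has 2 control libraries of unknown depth, so the floor of a low value cannot be given. With a mean signal of 20 or more, 983 genes were higher and 1245 lower than in both lines. The same minimum gave 1725 higher and 2102 lower than the mean of the other lines, 1986 higher than in HuH-28, 1888 higher than in SSP-25, and 1856 lower in HuH-28 than in SSP-25. A pseudocount of 10 gave 1852 genes higher than that mean. Requiring a log2 difference above 2 gave 935 higher and 774 lower than both, 1532 and 1552 against the mean, 1780 and 1914 against HuH-28, 1576 and 1478 against SSP-25, and 1605 and 1384 for HuH-28 against SSP-25. The last setting asks for a larger difference and the first tests fewer genes. Leaving out each library in turn gave 1336 to 1738 genes higher and 1602 to 1636 lower than both, lowest without RBE 1 (1336) and without RBE 2 (1359), where a gene seen in RBE alone cannot pass the filter. Among the lists, over all of these settings 11 to 16 biliary markers and 12 to 19 endoderm factors were higher than in both lines, and 18 to 24 mesenchymal genes and 9 to 12 class I genes lower, whereas hepatocyte markers ranged as low as 3 higher.

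All 30 leading genes kept their direction and call in the 816 comparisons run on them. Quantile normalization, which moved the median of all genes from -0.024 to 0.07, turned the RBE minus SSP-25 difference to 0.15 for CDH2, 0.15 for MYC, 0.13 for STK11 and 0.02 for VIM, and the RBE minus HuH-28 difference to 0.08 for ZEB1. Median-ratio scaling turned STK11 to 0.04 against SSP-25. Without 1 library, the difference from HuH-28 ranged over -1.01 to 0.18 for AFP, -0.88 to 0.50 for ESRP1 and -0.00 to 0.01 for GRHL2, and that from SSP-25 over -1.58 to 0.84 for APOA1 and -0.10 to 0.07 for STK11. The small differences of CD24, EGFR, MT2A and VIM from SSP-25 lost their p under several settings. The chromosome medians, tried under other settings after the data were seen, were -0.66 for X with a pseudocount of 10, -0.14 for chromosome 1 and -0.61 for X after quantile normalization, and -0.18 and -0.66 after median-ratio scaling. Without 1 library they ranged over -0.24 to -0.23 for chromosome 1 and -0.72 to -0.61 for X. The differences between replicates 1 and 2 were hardly correlated between lines across genes (0.053, -0.018 and -0.0055). Such correlations cannot tell whether libraries with the same number were handled together. With the number as a block 1769 genes were higher and 1635 lower than both. For these changes with scaling or library the cause was not tested.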
